A study of Mus musculus with 40 samples.

Results

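mmu-miR-146a-5p and mmu-miR-146b-5p, called miR-146a-5p and miR-146b-5p from here on, are the mature guide strands of the mouse miR-146 family, and their counts were followed in the blood of ageing mice. Both were found by name among the 1915 mature microRNAs of the raw count table, and both were among the 105 microRNAs with more than 100 reads in at least 20 of the 40 libraries. Small RNA of total blood was sequenced from male C57B/6J wild-type mice at 12, 13.5, 15 and 16.5 months, with 10 libraries at each age, and the question was how circulating microRNAs change while memory declines with age. No transgene or drug treatment is described for these mice, which were housed singly and bled from the orbital sinus under isoflurane, from alternating eyes. Learning mice swam in the water maze, and a home cage group did not. The labels do not say which libraries came from which group, so that age, repeated training and repeated bleeding cannot be told apart. The methods place the 12-month bleed before any behavioural experiment and the later bleeds after the probe tests. A figure legend of the paper instead describes habituation training at 12 months and a bleed once each maze procedure had ended. Whether the 12-month blood came before training is therefore not settled.

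The miR-146 microRNAs are best known from innate immunity. Toll-like receptor and interleukin-1 receptor signalling activates NF-kB, which induces miR-146a, and miR-146a in turn represses the adaptor Traf6 and the kinase Irak1, which form a negative feedback on the pathway. In blood they are found in monocytes and lymphocytes, and miR-146a is known to restrain inflammatory activity in myeloid and T cells.

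The mature sequences are shown because the pair can be told apart by only a few bases near the 3′ end, and because they carry one seed. Capitals mark the seed, bases 2 to 8, and the sequences are from RefSeq on GRCm38.p6.
miR-146a-5p: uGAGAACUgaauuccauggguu
miR-146b-5p: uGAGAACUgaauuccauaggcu
The strands were 22 bases long and identical at 20 positions, with the first 17 bases shared. Counted from the 5′ end, they differed by G18A and U21C, with the base of miR-146a-5p first. Of 1679 mature names searched, these were the only 2 with the seed GAGAACU. The hairpins shared an unbroken stretch of 21 bases that began 4 bases before the mature start. Reads as short as 18 bases were kept and could begin 2 bases upstream, so that the shortest reads could match both hairpins, whereas a read of the whole mature sequence matches one. The number of such short reads cannot be seen in counts.

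The 2 genes lie on different chromosomes. Mir146, the hairpin of miR-146a, spans chr11:43374397-43374461 on the minus strand and overlapped no other annotated gene, and the nearest was the long noncoding RNA Gm12148, 11021 bases away. Mir146b spans chr19:46342762-46342870 on the plus strand, within an intron of Mfsd13a on the same strand and in no exon of it.

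The target sites in Irak1 and Traf6, the signalling proteins named above, are shown because both microRNAs can pair with them through the same seed. Each line gives a stretch of the 3′ untranslated region in GENCODE M21 transcripts on GRCm38, with the seed match AGTTCTC in capitals.
Irak1, chrX:74015393-74015420, minus strand: ccctcagactcagaggtcaaAGTTCTCa
Irak1, chrX:74015377-74015404, minus strand: tcaaagttctcatgcttggaAGTTCTCa
Traf6, chr2:101697939-101697966, plus strand: aagttaccgctctggtgttgAGTTCTCa
Traf6, chr2:101698003-101698030, plus strand: catgatccctggaaggcttaAGTTCTCa
The Irak1 3′ untranslated region, of 1526 bases, held 2 matches on the transcript strand, and that of Traf6, of 4170 bases, held 4. An A followed all 6 matches. The same 7 letters were present in 2312 of 20940 mouse 3′ untranslated regions (11%), and a match is a description of the sequence, not a measured site. Neither mRNA was measured in these libraries.

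The miR-146 pair was a small part of the blood microRNA pool. miR-486a-5p and miR-486b-5p, red cell microRNAs with identical rows, took 92.8% ± 1.55 (SD, n = 10) of counts at 12 months, 93.0% ± 1.58 at 13.5, 95.9% ± 1.20 at 15 and 93.4% ± 2.13 at 16.5 months. Library totals ranged from 2469196 to 21386209 counts, and from 93002 to 1739959 outside the miR-486 rows. Outside miR-486, the 15-month libraries were the shallowest by their median, at 267135 counts against medians of 855062, 698499 and 597338 at 12, 13.5 and 16.5 months. miR-146a-5p held 19148 reads over the 40 libraries and miR-146b-5p 10132. By mean CPM, the count scaled to a fixed library size with trimmed mean (TMM) factors, they ranked 65th and 80th of the 105 microRNAs. Counts were lowest at 15 months by their median, at 16 to 311 for miR-146a-5p and 12 to 188 for miR-146b-5p, so that values at this age carry a larger counting error.

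Nearly all reads of either hairpin came from the 5p strand. miR-146a-3p, the opposite strand, had no read in any library, and a count of 0 against 19148 reads of the 5p strand allows a share of up to 0.0157% (3 counts). miR-146b-3p had 5 reads, 1 in each of 5 libraries, which was 0.0493% of the hairpin's reads (exact 95% binomial interval 0.0160% to 0.115%). The libraries had no molecular identifiers, so that such limits cover counting error only.

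The mean level of miR-146a-5p was lowest at 15 months and highest at 16.5 months, whereas its median was about equal at 13.5 and 16.5 months. Its lowest, median and highest levels were 12.3, 35.0 and 53.4 CPM at 12 months, 20.1, 42.3 and 59.8 CPM at 13.5 months, 10.2, 25.4 and 46.0 CPM at 15 months, and 32.5, 42.1 and 115 CPM at 16.5 months. The 16.5-month libraries reached far higher than the others, and the 15-month libraries spread over the widest range on the log scale, yet neighbouring ages overlapped throughout. At 16.5 months 4 libraries lay above every 15-month library, and 6 of the 15-month libraries lay below every 16.5-month library.

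On the log2 scale the mean level of miR-146a-5p was 4.97 ± 0.63 (SD, n = 10) at 12 months, 5.25 ± 0.49 at 13.5, 4.51 ± 0.84 at 15 and 5.68 ± 0.60 at 16.5 months. It differed over age in the edgeR quasi-likelihood test (adjusted p = 0.00545 over the 105 microRNAs), in which 61% of all microRNAs tested were called. Against 15 months, the level at 16.5 months was higher by 1.08 log2 (SE 0.28, edgeR adjusted p = 0.00313), and all 10 libraries lay above the 15-month mean, where 28.6% of microRNAs were called and 19% were called higher. Against 12 months it was higher by 0.73 log2 (SE 0.27, edgeR adjusted p = 0.0432), again in 10 of 10 libraries, where 23.8% were called and 13.3% were called higher. This second call was close to the threshold, and it was lost in 25 of the 40 fits that each left out a library, in which the adjusted p ran from 0.0342 to 0.102. The column names hold 10 numbers that recur at all ages and may mark the mice, since the methods describe mice bled repeatedly, but no source says so. With this number as a replicate block the difference was 0.70 (edgeR adjusted p = 0.0713).

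The other pairs of ages, neighbours in the order 15, 12, 13.5 and 16.5 months among them, did not pass the edgeR test after adjustment. Of all microRNAs tested, 29.5% were called at 13.5 against 12 months, 23.8% at 15 against 12 months, 47.6% at 15 against 13.5 months and 40% at 16.5 against 13.5 months. miR-146a-5p at 15 months differed from 12 months by −0.35 log2 (SE 0.27, edgeR adjusted p = 0.374), with 6 of 10 libraries below the 12-month mean. The difference of 13.5 from 12 months was 0.24 (SE 0.27, edgeR adjusted p = 0.530). The difference of 16.5 from 13.5 months was 0.49 (SE 0.27, edgeR adjusted p = 0.148), and that of 15 from 13.5 months was −0.59 (SE 0.27, edgeR adjusted p = 0.0709).

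**Figure D1:**
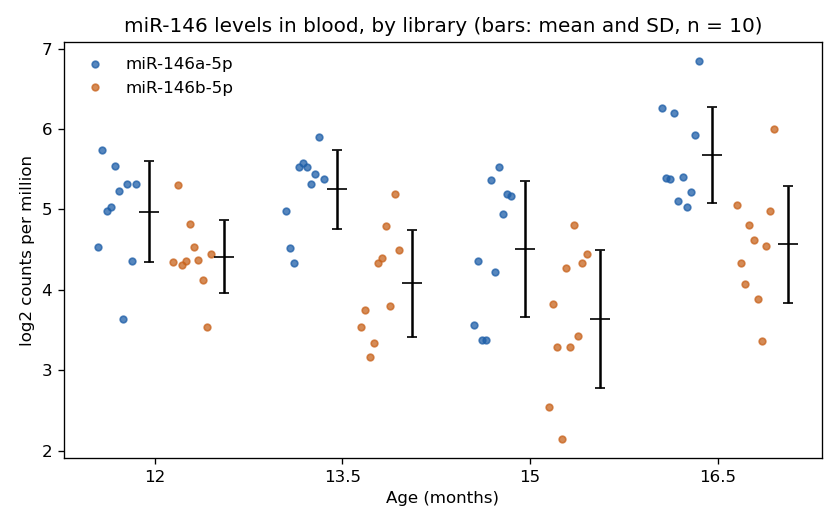
Levels of miR-146a-5p and miR-146b-5p as log2 CPM (vertical axis) in each library (points) at the 4 ages in months (horizontal axis), with the mean and SD of 10 libraries as bars. Both microRNAs have their lowest means at 15 months, at 4.51 and 3.64, and their highest at 16.5 months, at 5.68 and 4.57.

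miR-146b-5p, the family member encoded in the Mfsd13a intron, was also lowest at 15 months and highest at 16.5 months, by mean and median. Its lowest, median and highest levels were 11.4, 20.4 and 39.4 CPM at 12 months, 8.79, 16.8 and 36.4 CPM at 13.5 months, 4.24, 12.3 and 27.8 CPM at 15 months, and 10.1, 23.8 and 64.0 CPM at 16.5 months. The ages overlapped more than those of miR-146a-5p at 12 and 16.5 months, where only 1 of the 16.5-month libraries lay above every 12-month library. The means were 4.41 ± 0.45, 4.08 ± 0.66, 3.64 ± 0.86 and 4.57 ± 0.73 log2 CPM (SD, n = 10) in order of age.

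Over age, miR-146b-5p passed the edgeR test narrowly (adjusted p = 0.0464), and 31 of the 40 fits that each left out a library did not pass, with adjusted p up to 0.140. The level at 16.5 months exceeded that at 15 months by 0.90 log2 (SE 0.30, edgeR adjusted p = 0.0195), with 9 of 10 libraries above the 15-month mean. Without the 16.5-month library 10, which held the most miR-146b-5p reads of that age (1149), the difference was 0.66 (edgeR adjusted p = 0.0871), without library 1 of that age it was 0.79 (0.0540) and without library 9 it was 0.78 (0.0520). Libraries are numbered by their column order within an age.

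The remaining differences of miR-146b-5p did not pass. At 16.5 months the level was 0.29 log2 above 12 months (SE 0.29, edgeR adjusted p = 0.470) and 0.55 above 13.5 months (SE 0.29, edgeR adjusted p = 0.126). At 15 months it was −0.61 from 12 months (SE 0.30, edgeR adjusted p = 0.140) and −0.35 from 13.5 months (SE 0.30, edgeR adjusted p = 0.341). The difference of 13.5 from 12 months was −0.26 (SE 0.29, edgeR adjusted p = 0.530), with a sign opposite to that of miR-146a-5p. The order of ages was thus 15, 13.5, 12 and 16.5 months.

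**Figure D2:**
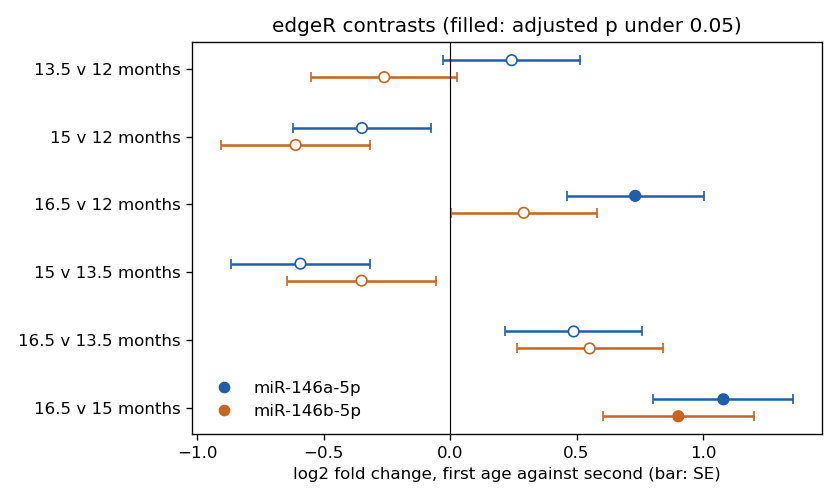
log2 fold change of miR-146a-5p and miR-146b-5p (horizontal axis, first age against second) in the 6 pairs of ages (vertical axis), with the SE from edgeR as bars and filled points for an adjusted p under 0.05. The filled points are miR-146a-5p at 16.5 against 12 months (0.73) and both microRNAs at 16.5 against 15 months (1.08 and 0.90).

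The calls between 15 and 16.5 months were lost without 3 of the 15-month libraries, though the differences kept their sign. That of miR-146a-5p held in each of the 40 fits that left out 1 library (edgeR adjusted p up to 0.0162). Of the 15-month columns, 3 carry the letter B and 7 the letter C, and the methods do not say what the letters mean. The B libraries held 16 to 78 reads of miR-146a-5p, at 3.77 ± 0.52 log2 CPM (SD, n = 3), and the C libraries held 29 to 311 reads, at 4.83 ± 0.76 (n = 7). miR-146b-5p was at 3.22 ± 0.64 in B libraries and 3.82 ± 0.92 in C libraries. Without the 3 B libraries the difference of 16.5 from 15 months was 0.74 log2 for miR-146a-5p (edgeR adjusted p = 0.0644) and 0.62 for miR-146b-5p (edgeR adjusted p = 0.156), and neither passed. Without the 7 C libraries it was 1.97 for miR-146a-5p (edgeR adjusted p = 0.00225) and 1.48 for miR-146b-5p (edgeR adjusted p = 0.0335). The low level at 15 months also depended on these libraries. For miR-146a-5p, the difference of 15 from 12 months was −0.04 without the B libraries and −1.28 without the C libraries (edgeR adjusted p = 0.946 and 0.0616), and that of 15 from 13.5 months was −0.23 and −1.50 (edgeR adjusted p = 0.522 and 0.00899). For miR-146b-5p, the difference of 15 from 12 months was −0.37 and −1.24, and that of 15 from 13.5 months was −0.06 and −0.95. Without the B libraries, the test over age was still passed by miR-146a-5p (adjusted p = 0.0430) but not by miR-146b-5p (adjusted p = 0.188). The part of the naming, of the lower depth at 15 months and of the larger share of miR-486 at that age was not tested.

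The ratio of the pair does not depend on library size or scaling, since both microRNAs are read in one library. miR-146a-5p had more reads than miR-146b-5p in 9, 10, 10 and 10 of 10 libraries at 12, 13.5, 15 and 16.5 months. The log2 ratio was lowest at 12 months, where it ran from −0.74 through a median of 0.70 to 1.20. It ran from 0.53 to 2.21 (median 1.16) at 13.5 months, from 0.09 to 1.52 (median 0.90) at 15 months and from 0.49 to 1.65 (median 1.13) at 16.5 months. As a share of the reads of the pair, miR-146a-5p held 59.4% ± 8.87 (SD, n = 10) at 12 months, 69.0% ± 6.99 at 13.5, 64.6% ± 6.31 at 15 and 68.2% ± 5.73 at 16.5 months. Capture of the 2 sequences in library preparation was not measured, so that the ratio of reads is not a ratio of molecules.

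The log2 ratio differed over the 4 ages in a permutation test of the one-way F statistic (100000 resamples, p = 0.0140), with means of 0.56 ± 0.53, 1.18 ± 0.50, 0.88 ± 0.39 and 1.11 ± 0.38 (SD, n = 10). At 13.5 months it was 0.62 higher than at 12 months (SE 0.23, permutation p = 0.00873, adjusted p = 0.0262 over 6 pairs of ages), in 9 of 10 libraries. At 16.5 months it was 0.55 higher than at 12 months (SE 0.20, permutation p = 0.00873, adjusted p = 0.0262), also in 9 of 10 libraries. Paired by the number in the column names, 7 of 10 pairs were higher at 16.5 months and the call was lost (exact permutation of signs, adjusted p = 0.0938), while 13.5 against 12 months passed (9 of 10 pairs, exact permutation of signs, adjusted p = 0.0352). The ratio at 15 months lay between, at 0.32 above 12 months (SE 0.21, permutation p = 0.145, adjusted p = 0.221). The ages from 13.5 months on did not differ from each other beyond their spread, with differences of −0.30 (SE 0.20) for 15 from 13.5 months, −0.07 (SE 0.20) for 16.5 from 13.5 months and 0.24 (SE 0.17) for 16.5 from 15 months. As levels, the same comparison of 12 with 16.5 months was 0.29 log2 for miR-146b-5p and 0.73 for miR-146a-5p.

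Both calls on the ratio were near the threshold and depended on single libraries. The 12-month library 7 held 128 reads of miR-146a-5p and 214 of miR-146b-5p, and was the only library of 40 with more of the latter. Without it the differences of 13.5 and 16.5 from 12 months were 0.48 and 0.41 (permutation, adjusted p = 0.0542 for both). The difference of 13.5 months was also lost without the 13.5-month libraries 4 (0.51, permutation, adjusted p = 0.0546) and 8 (0.57, permutation, adjusted p = 0.0516). That of 16.5 months was lost without the 16.5-month libraries 3 (0.53, permutation, adjusted p = 0.0508), 4 (0.52, 0.0537), 6 (0.51, 0.0562) and 7 (0.49, 0.0576).

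**Figure D3:**
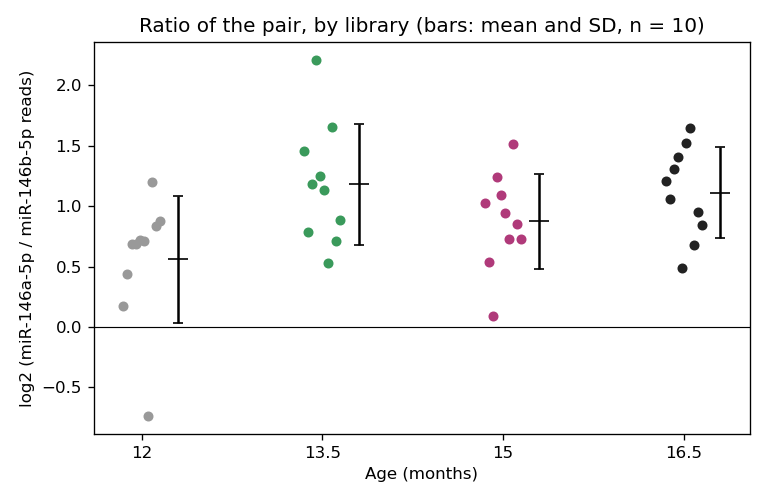
log2 ratio of miR-146a-5p to miR-146b-5p reads (vertical axis) in each library (points) at the 4 ages in months (horizontal axis), with the mean and SD of 10 libraries as bars and a line at equal reads. The 12-month mean is 0.56 against 0.88 to 1.18 at the later ages, and 1 library of 12 months, at −0.74, lies below the line.

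Across the 40 libraries the levels of the pair moved together, with a Pearson r of 0.78 of log2 CPM. After the means of each age were removed r was also 0.78. Within single ages r was 0.57 at 12, 0.67 at 13.5, 0.89 at 15 and 0.85 at 16.5 months (10 libraries each). These values are descriptions, since both levels share a library's depth and scaling factor, and the shortest reads may be shared. Over the 40 libraries each was the nearest to the other among the 105 tested. With the age means removed this held for miR-146a-5p, while miR-146b-5p was nearer to 5 others, led by miR-24-3p (0.84) and miR-30d-5p (0.81).

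**Figure D4:**
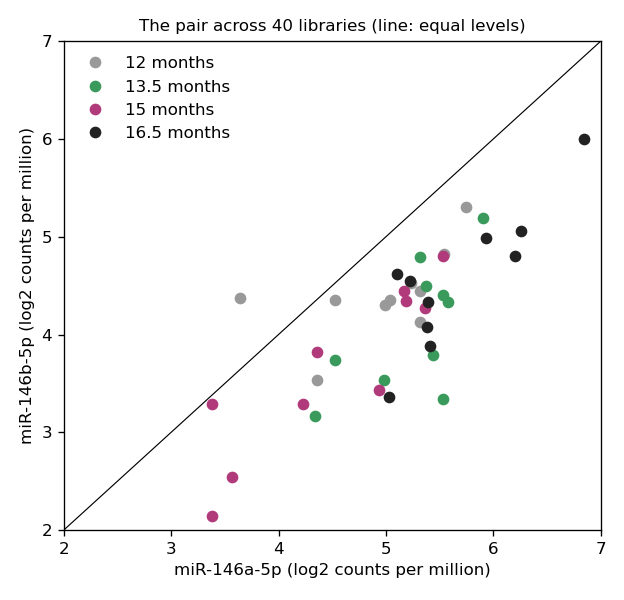
Level of miR-146b-5p (vertical axis) against miR-146a-5p (horizontal axis), both as log2 CPM, in 40 libraries coloured by age, with a line at equal levels. The points rise together (r = 0.78), and the one library above the line is library 7 of 12 months.

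The other microRNAs most like each member were taken by r over the 40 libraries, which the age means enter. For miR-146a-5p they were miR-374b-5p and miR-374c-5p, which have identical rows (r = 0.64), miR-10a-5p (0.63) and miR-23a-3p (0.62). With the age means removed, r was 0.45 for miR-374b-5p, 0.66 for miR-10a-5p and 0.42 for miR-23a-3p, below the 0.75 of miR-26b-5p and 0.74 of miR-24-3p. Since these microRNAs were picked partly by their pattern over age, their changes are given as a description. miR-374b-5p rose from 15 to 16.5 months by 0.99 log2 (SE 0.15, edgeR adjusted p = 3.12e-06), and miR-23a-3p by 0.53 (SE 0.12, edgeR adjusted p = 0.00103). miR-10a-5p differed by 0.37 between these ages (SE 0.15, edgeR adjusted p = 0.0550), and its level at 15 months was 0.31 log2 above 12 months (SE 0.15, edgeR adjusted p = 0.140), where the difference of miR-146a-5p was negative. For miR-146b-5p they were miR-24-3p (0.77), miR-26b-5p (0.69), miR-23b-3p (0.66) and miR-16-5p (0.64), and with the age means removed these were 0.84, 0.80, 0.67 and 0.73. From 15 to 16.5 months the differences of these 4 were smaller than that of miR-146b-5p itself, from −0.02 log2 for miR-26b-5p (SE 0.25, edgeR adjusted p = 0.973) to 0.28 for miR-23b-3p (SE 0.12, edgeR adjusted p = 0.0761).

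How many other microRNAs of Toll-like receptor and NF-kB signalling passed the test over age depended on the processing. Of 12 on a list of microRNAs known to respond to or restrain these pathways, 5 were tested. In other processings 1 to 4 of the list passed, with 4 under library totals and under limma, which tested the same 5. The lower filter and no filter also gave 4, but tested more of the list. The share of all microRNAs called in those processings was not computed. Under the settings used throughout, 1 of the 5 passed the edgeR test over age, beside 61% of all microRNAs. This was miR-99b-5p (adjusted p = 0.00209), encoded in one cluster with let-7e and miR-125a, whose mean rose from 7.63 log2 CPM at 12 months to 8.07 at 13.5 months and was 7.32 at 16.5 months. miR-99b-5p was lower at 16.5 than at 13.5 months by −0.71 log2 (SE 0.16, edgeR adjusted p = 0.000360), and miR-125b-5p, which targets TNF, was lower by −0.66 (SE 0.24, edgeR adjusted p = 0.0246). From 15 to 16.5 months the 5 differed by −0.37 log2 (miR-99b-5p, SE 0.16, edgeR adjusted p = 0.0695) to 0.20 (miR-125a-5p, SE 0.25, edgeR adjusted p = 0.580), and their median was −0.15 log2 beside 0.05 over all 105 microRNAs. In the same comparison miR-21a-5p, which restrains the pathway through PDCD4, differed by −0.15 (SE 0.25, edgeR adjusted p = 0.684).

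miR-223-3p, the myeloid microRNA of neutrophils and monocytes, was lower at 13.5 than at 12 months by −0.59 log2 (SE 0.21, edgeR adjusted p = 0.0281). From 15 to 16.5 months it differed by 0.13 (SE 0.21, edgeR adjusted p = 0.677). miR-155-5p, the NF-kB-induced microRNA that acts opposite to miR-146a in many settings, was too low to test, with a median of 9 reads and at most 38. miR-147-3p and miR-187-3p, induced in activated macrophages, had at most 1 read in any library.

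Lymphoid markers were higher at 16.5 than at 12 months, as miR-146a-5p was, but library by library they were not among the nearest to the pair. Over the 40 libraries, r with miR-146a-5p was 0.44 for miR-342-3p and −0.01 for miR-150-5p, and with miR-146b-5p it was 0.05 and −0.40. With the age means removed, these were 0.30, −0.25, −0.07 and −0.57. Among myeloid markers, r over the 40 libraries with miR-146a-5p and miR-146b-5p was 0.30 and 0.59 for miR-223-3p, and −0.11 and 0.19 for miR-142a-5p. The red cell markers went both ways. For them r was 0.29 and 0.56 for miR-451a, 0.48 and 0.64 for miR-16-5p and 0.17 and 0.32 for miR-144-5p. It was −0.61 and −0.63 for either miR-486 5p row. Of the lymphoid markers, miR-342-3p at 16.5 months exceeded its 12-month level by 1.10 log2 (SE 0.19, edgeR adjusted p = 5.71e-05). In the same comparison miR-150-5p did so by 0.86 (SE 0.30, edgeR adjusted p = 0.0273), where 23.8% of all microRNAs were called and 13.3% were called higher. These were the 2 markers tested of 3. Their summed level ran from 99.7 to 373 CPM at 12 months, from 121 to 598 at 13.5 months, from 139 to 427 at 15 months and from 136 to 870 at 16.5 months. From 15 to 16.5 months miR-342-3p gained 0.72 log2 (SE 0.19, edgeR adjusted p = 0.00459), and miR-150-5p differed by 0.71 (SE 0.30, edgeR adjusted p = 0.0606). Of the myeloid markers, 2 of 4 were tested, and from 15 to 16.5 months miR-142a-5p differed by −0.13 log2 (SE 0.13, edgeR adjusted p = 0.507), beside the 0.13 of miR-223-3p. Their summed level ran from 2130 to 3525 CPM at 12 months, 1404 to 2940 at 13.5, 1941 to 4271 at 15 and 1734 to 3637 at 16.5 months. Of the red cell markers, 5 of 6 were tested, and from 15 to 16.5 months 2, the identical miR-486 rows, were called lower (−0.63 log2, SE 0.24, edgeR adjusted p = 0.0472), where 9.52% of all microRNAs were called lower. The others differed by −0.47 for miR-451a, 0.33 for miR-144-5p and 0.17 for miR-16-5p (edgeR adjusted p = 0.317, 0.459 and 0.469). The platelet and endothelial markers miR-126a-3p and miR-126a-5p were below the test's filter, with median counts of 3.5 and 9, and the liver marker miR-122-5p had at most 3 reads. The part of lymphoid and red cells in the values of the miR-146 pair was not tested. In whole blood fewer cells of a type and less RNA per cell cannot be told apart.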

How the data were processed

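Blood small RNA was prepared with the TruSeq kit and sequenced in single-end reads. The authors trimmed adapters, mapped reads with miRDeep2 to mm10 and deposited raw counts per mature microRNA, quantified with no mismatch against miRBase precursors, from 2 bases upstream to 5 downstream of each mature position. A second deposited table of normalized values was not used here. Each column was assigned to its age from its name. The 105 microRNAs with more than 100 counts in 50% of libraries were fitted together with edgeR 4.0.16 (R 4.3.3; TMM factors, quasi-likelihood, 4 ages, Benjamini-Hochberg adjustment); log2 CPM used a prior count of 2. log2 ratios used a pseudocount of 0.5 and permutation tests, of the F statistic over the 4 ages and 2-sided between 2 ages. DESeq2 1.42.0, limma 3.58.1 and other settings were alternatives. The fits were tested on simulated data. The same mice were followed, but no source ties columns to mice, so that p-values treat libraries as independent and do not account for repeated bleeds. Named microRNAs were the pair, their opposite strands, a pathway list, cell type markers, and the 5 most correlated with each member. The members and lists were chosen with earlier results of these data known. Replicates of an age were compared in 180 pairs, none of which agreed within sampling noise.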

Additional observations from a re-analysis of the deposited data

Results flagged for a closer look

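At 12 months, the lowest log2 ratio of miR-146a-5p to miR-146b-5p, −0.74 in library 7, stood apart from the other libraries. The nearest of them was at 0.18, and the gap was 0.473 of the range of the group, above the critical value of 0.466 for 10 samples. The same check ran on 12 groups, the levels of both microRNAs and their ratio at each age, and chance flags about 1 in 20 groups. The cause was not tested.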

How the results depend on the processing

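miR-146a-5p over age passed under each of 13 alternatives and in each fit without a library (adjusted p 4.40e-07 to 0.0430), and no alternative or left-out library reversed a difference of either microRNA. Its difference of 16.5 from 12 months was 0.59 with library totals alone (adjusted p = 0.401 in edgeR), 0.71 with a filter of more than 1 read and 0.66 with no filter, all without a call, and 0.60 to 0.81 with a library left out. That difference of miR-146a-5p was called in 10 of 14 alternatives, and with 2 factors of unwanted variation it was 0.97 (edgeR adjusted p = 3.59e-05). Its difference of 16.5 from 15 months was 0.74 without the B libraries of 15 months. miR-146b-5p over age had edgeR adjusted p = 0.0601 with RLE factors, 0.0704 without the miR-486 rows, 0.0558 with the lower filter, 0.0681 with no filter and 0.188 without the B libraries, and 0.0205 to 0.140 with a library left out. In the other 8 of 13 alternatives miR-146b-5p passed, with adjusted p = 0.0353 in DESeq2, 0.00536 in limma and 0.000178 in edgeR with 2 factors. Its difference of 16.5 from 15 months was 0.93 with no filter and 0.62 without the B libraries, and 0.66 to 0.998 with a library left out. Why these calls were lost was not tested.

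Calls gained were, for miR-146a-5p, 13.5 v 12 months with 1 factor of unwanted variation (0.48), 15 v 12 months with library totals (−1.02) and 2 factors (−0.53), 15 v 13.5 months with library totals (−1.18), limma (−0.58), 1 factor (−0.80), 2 factors (−0.90) and without the C libraries (−1.50; −0.68 to −0.39 with a library left out), and 16.5 v 13.5 months with 1 factor (0.45) and 2 factors (0.59). For miR-146b-5p they were 15 v 12 months with library totals (−1.31), limma (−0.63), 1 factor (−0.63) and 2 factors (−0.71), 16.5 v 12 months with 2 factors (0.45), 15 v 13.5 months with library totals (−1.01), 1 factor (−0.58) and 2 factors (−0.61), and 16.5 v 13.5 months with limma (0.72), 1 factor (0.48) and 2 factors (0.55), and 0.41 to 0.75 with a library left out. Library totals moved the median of all 105 microRNAs by −0.84 for 15 against 12 months, −0.81 for 15 against 13.5 and 0.65 for 16.5 against 15, so that those values are to be read against that shift.

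The 1 library of low connectivity was the 16.5-month library 7. Without it the ratio of 16.5 to 12 months was 0.49 (permutation, adjusted p = 0.0576), and it was 0.41 to 0.62 with a library left out. The comparison of 13.5 with 12 months does not use this library, and its difference stayed at 0.62. Its adjusted p was 0.0524 there (permutation), because the 6 pairs of ages were adjusted together. The ratio of 13.5 to 12 months was 0.48 to 0.69 with a library left out. That of 15 to 12 months reversed without the C libraries, at −0.00574 (permutation, adjusted p = 0.990), and that of 16.5 to 13.5 months ran from −0.14 to 0.0446, without the 13.5-month library 4, with a library left out. The pathway list had 2 called over age with RLE factors, without the B or the C libraries and with a replicate block, 3 with DESeq2 and with 1 or 2 factors, and 4 with library totals, limma, the lower filter and no filter. The lower filter and no filter tested more of the list than the other fits. The share of all microRNAs called in these fits was not computed, so that the counts have no background beside them.

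The 10 numbers that recur in the column names at all 4 ages may mark the mice, which no source states. By the median, same-numbered libraries did not deviate together more than others (r = −0.03 over 60 pairs and 0.01 over 540 other pairs). Of the 60 pairs 24 were above 0.1, which was not counted in the other pairs. Of the 40 libraries 6 correlated best with their own number, and no expected value was computed. This check cannot show whether the numbers mark mice. With this number as a replicate block, miR-146a-5p 16.5 v 12 months was 0.70 (edgeR adjusted p = 0.0713), miR-146b-5p 15 v 12 months was −0.77 (0.0425) and the ratio of 16.5 to 12 months was 0.55 (exact permutation of signs, adjusted p = 0.0938), and the block changed no other call on the levels of the pair or on the ratio between 2 ages; the ratio over the 4 ages was not run with it. The block and the leaving out of the B or C libraries were chosen after seeing the data.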
